A study of Mus musculus with 2 samples.

Results

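The regions described here are DNase I footprints that lay outside every called peak of open chromatin in mouse spleen. DNase I cuts exposed DNA, and a footprint is a short run of bases with fewer cuts than its surroundings, read as a mark left by a bound protein. A peak is a longer stretch in which cuts pile up. A footprint was counted as outside when its midpoint lay in no peak of either of the 2 peak lists deposited for its library. The members were thus chosen by the measured positions of peaks and footprints, so their position relative to peaks is a description and not a finding. By this rule 31833 of 211394 footprints lay outside peaks in animal 1, or 15.1%, and 35249 of 215907 in animal 2, or 16.3%. Over both animals there were 67082 such footprints among 427301, and 360219 lay inside a peak. The mean share outside was 15.7% ± 0.896 (SD, n = 2).

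The libraries came from 2 male mice of the strain B6CASTF1/J at 2 months of age. This strain is a first-generation cross of C57BL/6J with CAST/EiJ. Each mouse gave 1 DNase-seq library from whole spleen tissue, a mixture of lymphocytes, macrophages, red cell precursors and stroma. Both mice belong to 1 group, with no treatment and no second genotype, and they are called animal 1 and animal 2 after their biological replicate numbers. As a check of the tissue, a peak lay within 1 kb of a start site in both animals at the B cell markers Cd79a, Cd79b, Ms4a1 and Pax5, the T cell markers Cd3e, Cd3d, Lck and Cd5, and the red pulp macrophage markers Spic, Vcam1 and Hmox1. The hepatocyte markers Alb, Apoa1, Ttr and Fgb had none. In longer lists the picture was less clean. Of 14 macrophage and monocyte genes, 10 had such a peak in animal 1 and 7 in animal 2, with Adgre1, C1qb, Cd163 and Mrc1 lacking one in both. The T cell genes Cd4 and Ctla4 also lacked one, and of 10 hepatocyte genes Apob and F9 had one in both animals. The longer peak lists held 79246 peaks in animal 1 and 77231 in animal 2, with median widths of 200 and 180 bp. Every peak height was a whole multiple of 1 step within 0.05 of a step. If heights count cuts per M cuts, those steps correspond to totals of 139.6 M and 147.3 M cuts, a depth that is inferred and not stated in the files. Footprints outside and inside peaks of the same animal were set side by side, and the difference was read against its spread between the animals. An exact sign-flip test of 2 differences cannot go below p = 0.5, so no such test was made.

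Open regions of the genome are flanked by nucleosomes, and many are promoters, where transcription factors and the initiation machinery occupy the DNA around the transcription start site (TSS). Promoters of broadly expressed genes are often rich in G, C and the dinucleotide CpG. Other open regions are enhancers, or sites bound by CTCF, a zinc finger protein that marks boundaries of chromatin domains.

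To show what these regions look like, the footprints that lay farthest from any peak in both animals are printed with the interval of animal 1 in capitals and 10 bp on each side in lower case. The sequences were taken from the plus strand of the mm10 reference, which has the C57BL/6J sequence, so a CAST/EiJ allele may differ. All printed footprints were members in both animals. The regions were selected on their distance from a peak, which therefore carries no test. Consensus matches named below were searched in the footprint with 5 bp on each side and may use flanking bases.
Rabif, chr1:134495171-134495186: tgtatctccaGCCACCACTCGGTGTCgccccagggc
Far1, chr7:113514130-113514138: gccgggccgcCGCCCTCCCgactgccagg
Jun, chr4:95052803-95052815: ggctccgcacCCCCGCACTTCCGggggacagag
Fbxo31, chr8:121579321-121579348: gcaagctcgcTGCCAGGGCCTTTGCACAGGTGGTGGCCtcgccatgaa
Usp1, chr4:98923906-98923912: cgctggcgcgGGCGGGGgttcactcgc

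Each of these footprints lay within 1 kb of the TSS of the gene it is listed under. The footprint at Rabif, which encodes a partner of Rab GTPases, had its midpoint 531 bp downstream of the nearest TSS and touched no exon. It was 459 bp from the nearest peak of animal 1 and 486 bp from that of animal 2. The footprint at Far1, which encodes an enzyme that makes fatty alcohols, lay 36 bp downstream of the TSS, at or beside an exon, and 394 bp from a peak in both animals. At Jun, an immediate early gene for a subunit of the AP-1 transcription factor, the footprint lay 587 bp upstream of the TSS, and its window held the ETS consensus on the minus strand, ending in the first flanking base. Its distance from a peak was 389 bp in animal 1 and 384 bp in animal 2. The footprint at Fbxo31, which encodes a subunit of a ubiquitin ligase, lay 529 bp upstream of the TSS, was 28 bp wide in both animals and held CAGGTG, the E2A consensus. The footprint at Usp1, which encodes a deubiquitinase, lay 30 bp downstream of the TSS. Its window held GGGCGG, the consensus of the SP and KLF families, starting in the flank. The window at Far1 held it too, on the minus strand. GC content over footprint and flanks was 66.7% at Rabif, 86.2% at Far1, 75.8% at Jun, 64.6% at Fbxo31 and 81.5% at Usp1.

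A second set shows members that were over 200 bp from any peak of both animals and yet had the lowest false discovery rate (FDR) of the cut rate, the authors' measure of how far a short interval exceeds background cutting. They were selected on that FDR. The first of them, at chr2:30981916-30981950 beside the TSS of BC005624, was 35 bp wide with the same ends in both animals. Its lowest FDR was 2.72e-166 in animal 1 and 5.80e-105 in animal 2, and it lay 208 bp from the nearest peak in each. The other members of this set are printed in the same way.
Safb2, chr17:56584579-56584588: ctccctttgcGGCTGCGCAGgcgcacagct
Atf2, chr2:73892548-73892557: acaaactagcCCCGGAGGAGagggctgaat
Ints6, chr14:62761650-62761664: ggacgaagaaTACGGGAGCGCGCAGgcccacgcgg
Eif5a, chr11:69921790-69921802: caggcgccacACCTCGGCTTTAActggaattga

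The footprint at Safb2, which encodes a nuclear scaffold protein, had its midpoint 1 bp downstream of the TSS. That at Atf2, a gene for a CREB-family transcription factor, lay at the TSS itself. Those at Ints6, which encodes an Integrator subunit, and Eif5a, which encodes a translation factor, lay 488 bp upstream and 162 bp downstream of a TSS. The lowest FDR of these 4 members was between 6.57e-104 at Safb2 and 4.39e-55 at Eif5a in animal 1. In animal 2 it was between 1.20e-105 at Safb2 and 4.11e-65 at Ints6. None of the 4 windows held a match to the 21 consensus sequences searched, which says only that those letters are not there.

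Footprints outside peaks were close neighbours of peaks. The median distance from midpoint to nearest peak was 32 bp in animal 1 and 28 bp in animal 2, with quartiles of 14 and 69 bp and of 12 and 62 bp. The 95th percentile was 180 and 177 bp. The farthest members were 764 bp from a peak in animal 1 and 648 bp in animal 2, so none lay 1 kb or more away. These values rest on the longer peak list: with the shorter list alone, 30.4% of footprints lay outside peaks, at a median distance of 110.5 bp, and 29.9% of those were over 1 kb from a peak. With peaks widened by 20 bp on each side the share outside was 9.68%, and by 50 bp it was 5.26% (means of the animals). Within 1 to 50 bp lay 20548 members of animal 1, or 64.5%, and 24053 of animal 2, or 68.2%. The range of 51 to 200 bp held 31.9% and 28.3%, and that of over 200 bp held 1118 members, or 3.51%, and 1217 members, or 3.45%.

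Across the edge of a peak the density of footprints fell without a break. In the first 10 bp outside, there were 3.96 footprints per kb of sequence in animal 1 and 5.18 in animal 2, against 5.98 and 7.47 in the last 10 bp inside. Just outside the threshold, 653 and 839 footprints had their midpoint on the first base beyond a peak. Just inside it, 688 and 831 had it on the last base of a peak. Density was 0.443 and 0.455 per kb in the bin centred 95 bp outside and 0.464 and 0.474 per kb in that centred at 115 bp, so the density did not fall further between them in either animal. At 195 bp it was 0.168 and 0.165 per kb. Of the members, 11.1% in animal 1 and 14.5% in animal 2 overlapped a peak by at least 1 bp although their midpoint was outside. A gap of at most 200 bp between 2 peaks held 7.65% and 8.75% of the members, and a gap of at most 500 bp held 27.0% and 27.5%.

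**Figure D1:**
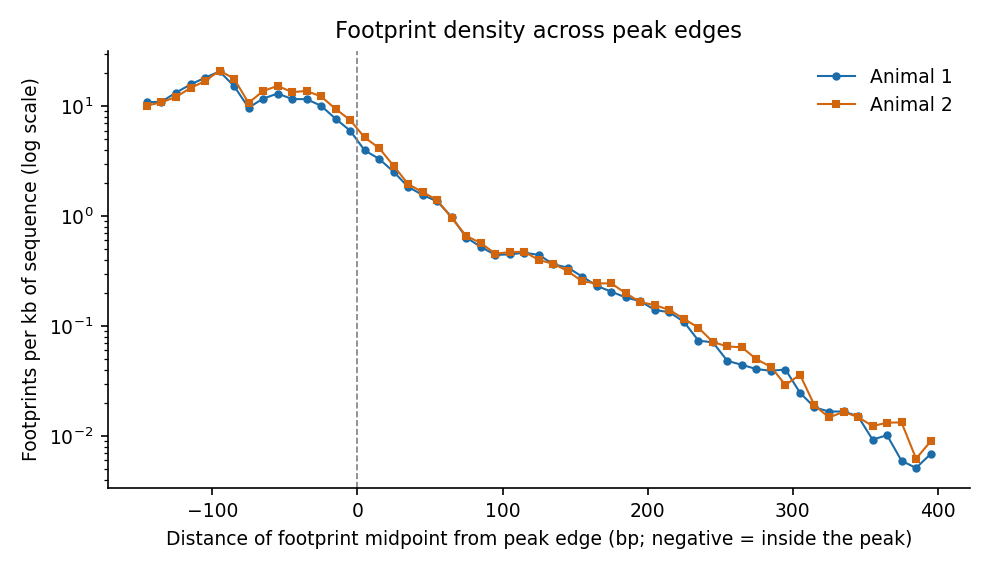
Footprints per kb of sequence (log scale) against the distance of the footprint midpoint from the nearest peak edge in bp, in bins of 10 bp, with 1 line for each animal. Density was 5.98 and 7.47 per kb in the last bin inside peaks, 3.96 and 5.18 in the first bin outside, and 0.168 and 0.165 at 195 bp.

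Peaks with members beside them were higher than other peaks at the median. Members within 200 bp of more than 1 peak were counted for each of them. A member lay within 200 bp of 17506 of 79246 peaks in animal 1, or 22.1%, and of 19889 of 77231 peaks in animal 2, or 25.8%. The median height of those peaks was 3.78 in animal 1, against 0.731 for the 61740 peaks with no member within 200 bp. In animal 2 it was 4.04, against 0.815 for 57342 peaks. Against only those peaks without a member that held a footprint inside, the medians to compare were 0.860 and 0.951. Peaks with a member were at a promoter in 61.3% of cases, against 24.3% of peaks with none in animal 1, and in 60.2% against 25.8% in animal 2. Peaks were cut into 10 equal groups by height. The share with a member was 5.70% and 5.96% in the lowest group, 9.64% and 12.4% in group 5, 45.7% and 54.7% in group 9, and 85.6% and 88.9% in the highest. Median peak width was 200 bp for peaks with and without a member in animal 1, and 180 bp for both in animal 2. Heights come from the same libraries as the members and are the authors' own values, so these figures describe where members lay.

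**Figure D2:**
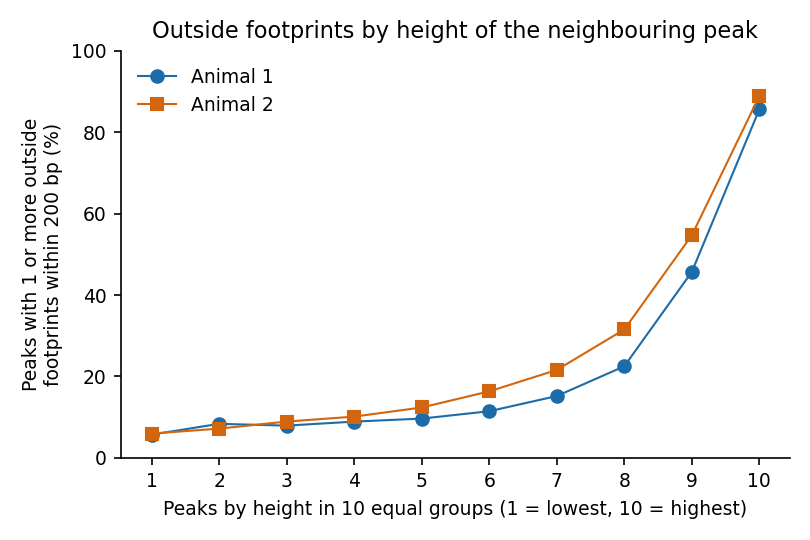
Share of peaks (%) with 1 or more outside footprints within 200 bp, by group of peak height, each holding 10% of the peaks, from lowest (1) to highest (10), with 1 line for each animal. The lowest group had 5.70% and 5.96% and the highest 85.6% and 88.9%.

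Most peaks with members had a single one, 52.5% in animal 1 and 52.7% in animal 2. Peaks with 5 or more members numbered 1064 and 1078, whose median height was 10.98 and 12.6 and of which 89.3% and 92.2% were at promoters. Of the peaks with members, 1828 in animal 1, or 10.4%, and 1635 in animal 2, or 8.22%, had no footprint inside. Those were low peaks, with median heights of 0.595 and 0.740, under the medians of all peaks. They were at promoters in 52.6% and 61.5% of cases, against 32.5% and 34.7% of all peaks. Whether their members also lay within 200 bp of a higher peak was not counted. The 5 peaks with most members summed over the animals had 19 each. They lay upstream of Sec14l1 with 9 members in animal 1 and 10 in animal 2, Kat6b with 8 and 11, Dop1b with 10 and 9, Fem1c with 10 and 9, and Nmt2 with 11 and 8. Kat6b encodes a histone acetyltransferase and Nmt2 an enzyme that attaches myristate to proteins. Heights of these peaks were between 12.6 and 21.2 in animal 1 and between 13.8 and 24.6 in animal 2, far above the medians of all peaks, 0.888 and 1.05.

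Footprints outside peaks were concentrated at promoters, defined as 1 kb on each side of a protein-coding TSS. In animal 1, 70.7% of outside footprints were at promoters, against 40.3% of inside footprints. Animal 2 had 70.1%, against 41.1%. Among all footprints the share was 44.9% in animal 1 and 45.9% in animal 2. The difference of outside minus inside was 29.6 ± 0.976 percentage points (SD, n = 2), far more than the spread between the animals. Introns held 11.3% of outside footprints against 26.1% of inside footprints in animal 1, and 11.2% against 24.9% in animal 2. Intergenic sequence held 16.4% against 30.2%, and 17.0% against 30.2%. Coding exons held 0.660% against 1.29%, and 0.712% against 1.76%. Promoters took precedence, so the shares of introns, intergenic sequence and exons depend on the promoter share. Away from promoters, intergenic sequence held 55.9% of outside against 50.7% of inside footprints in animal 1, and 56.9% against 51.2% in animal 2. Introns there held 38.5% against 43.8%, and 37.5% against 42.3%. The coding exon share there differed in direction between the animals. The promoter share was larger farther from the peak. It was 66.2% at 1 to 50 bp, 77.8% at 51 to 200 bp and 87.5% over 200 bp away in animal 1, and 64.5%, 81.0% and 91.3% in animal 2.

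At promoters, members lay at the start site and on both sides of it. Within 100 bp of the TSS lay 45.5% of outside against 54.7% of inside footprints in animal 1, and 45.6% against 54.3% in animal 2. The median distance from the TSS was 117 bp for outside and 85 bp for inside footprints in animal 1, and 115 and 86 bp in animal 2. Inside footprints had a single maximum, with 21.3% and 21.2% of them in the 50 bp just upstream of the TSS. Outside footprints had their maximum in the 50 bp just downstream, with 16.5% and 17.2%. They also had a smaller one in the 50 bp centred 125 bp upstream, with 8.62% and 9.50%. Between these, the bin centred 75 bp upstream held 6.41% and 6.34% of outside footprints, against 13.9% and 13.8% of inside footprints. Downstream of the TSS lay 44.3% of outside against 36.7% of inside footprints in animal 1, and 45.3% against 37.7% in animal 2. This difference was 7.62 ± 0.0401 percentage points (SD, n = 2). Between 100 and 250 bp downstream lay 10.3% of outside against 4.96% of inside footprints in animal 1, and 10.2% against 5.31% in animal 2.

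**Figure D3:**
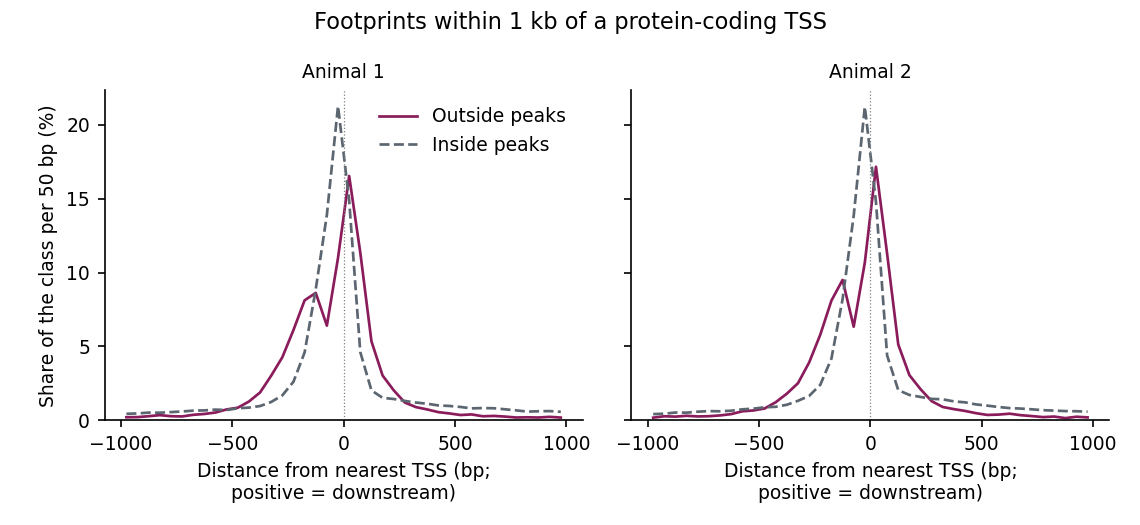
Share of footprints within 1 kb of a protein-coding TSS (%) per 50 bp, against the distance from the nearest TSS in bp with downstream positive, for outside (solid) and inside (dashed) footprints, 1 panel for each animal. Outside footprints peaked at 16.5% and 17.2% just downstream of the TSS with a shoulder at 125 bp upstream, and inside footprints at 21.3% and 21.2% just upstream.

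Outside footprints were narrower than inside ones. Median widths were 9 bp outside and 10 bp inside in animal 1, and 10 and 11 bp in animal 2. Mean widths were 11.9 and 14.1 bp in animal 1 and 13.0 and 15.3 bp in animal 2. The shortest width in the files, 7 bp, was that of 31.4% of outside against 24.6% of inside footprints in animal 1, and of 27.3% against 21.7% in animal 2. Widths of 30 bp or more made up 3.32% of outside against 8.32% of inside footprints, and 5.08% against 10.5%. That difference was -5.23 ± 0.323 percentage points (SD, n = 2). Wide members were rarer with distance, with 3.83%, 2.51% and 1.25% in the distance classes of animal 1 from near to far and 6.26%, 2.70% and 1.40% in those of animal 2.

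Base composition differed by location. Over footprint and 10 bp on each side, mean GC content was 60.8% outside and 58.0% inside peaks in animal 1, and 60.2% and 59.2% in animal 2. The number of CpG per 100 bp was 6.87 outside and 4.76 inside, and 6.74 and 4.99. When only promoters were compared, CpG was 8.60 against 8.27 and 8.54 against 8.43 per 100 bp, and GC content was 64.9% in both classes of animal 1 and 64.9% against 65.7% in animal 2. Away from promoters the sign turned round, with a GC content of 50.8% outside against 53.3% inside peaks in animal 1, and 49.4% against 54.6% in animal 2. Those distal members also held more repeat-masked bases, 18.4% against 13.2% and 19.7% against 13.5%.

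Consensus sequences of transcription factors were matched on either strand in each footprint with 5 bp on each side. Of 21 sequences, 16 had a lower share of outside than of inside footprints in both animals, 1 had a higher share in both, and 4 differed in direction between the animals. Shares below are percentages of footprints with a match. The windows of outside footprints were shorter, so footprints with a match were also counted per Mb scanned, called matches per Mb below. Each footprint adds at most 1 to that count. A longer window still offers more positions per base for a whole consensus, so width is not fully corrected for. By matches per Mb 14 sequences were lower and 4 higher outside in both animals, the 4 being SP/KLF, GATA, TATA and YY1. A match is a description of the letters and not evidence of binding.

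CTCF showed the widest gap. Its consensus, searched as a degenerate sequence, was matched by 41 outside footprints or 0.129% in animal 1, against 4591 inside footprints or 2.56%. In animal 2 it was matched by 27 or 0.0766%, against 5076 or 2.81%. The difference was -2.58 ± 0.216 percentage points (SD, n = 2). It was also present at promoters alone, with 0.0889% against 0.609% and 0.0607% against 0.646%. Footprints with a CTCF match numbered 58.9 per Mb outside and 1061 per Mb inside in animal 1, and 33.3 and 1112 per Mb in animal 2.

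Several sequences bound by factors known from blood cells were then compared, a grouping made only for reading. The consensus of PU.1 (GAGGAAGT), a regulator of B cells and myeloid cells, was matched in 0.163% of outside against 0.522% of inside footprints in animal 1, and in 0.108% against 0.347% in animal 2. RUNX (TGTGGT), bound by regulators of lymphocytes, had 0.889% against 2.25% and 0.891% against 2.05%. E2A (CAGGTG), bound by E proteins of early lymphocytes, had 0.955% against 2.14% and 0.965% against 2.47%. OCT (ATGCAAAT), the octamer of immunoglobulin promoters, had 0.0817% against 0.218% and 0.0596% against 0.147%. EBF (CCCNNGGGA) had 0.682% against 0.940% and 0.740% against 0.951%, and IRF (GAAANNGAA) had 0.490% against 0.555% and 0.409% against 0.445%. For IRF the matches per Mb lay in opposite directions in the animals, and away from promoters they were higher outside in both, at 379 against 276 and 222 against 208. GATA, a family also known from blood cells, differed from the others, with 132 matches per Mb outside against 124 inside in animal 1 and 181 against 118 in animal 2. NF-kB, searched as a degenerate sequence, had 0.232% against 0.408% and 0.321% against 0.532%. The classes differ in promoter share, so values away from promoters are added. There, PU.1 had 0.428% against 0.702% and 0.180% against 0.448%, and RUNX 1.71% against 3.09% and 1.57% against 2.84%. E2A had 1.24% against 2.74% and 1.27% against 3.20%, and OCT 0.171% against 0.281% and 0.133% against 0.179%. Relative to inside, the gap there was smaller than over all footprints for PU.1, RUNX and OCT and nearly unchanged for E2A. At promoters they were lower outside too.

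Among sequences known from promoters of many genes, results were mixed. SP/KLF is given below, and YY1 had more matches per Mb outside than inside, at 221 against 209 in animal 1 and 253 against 211 in animal 2. By share of footprints YY1 differed in direction, at 0.484% against 0.503% and 0.582% against 0.533%. Away from promoters its matches per Mb were lower outside in both animals, at 156 against 206 and 158 against 203. The sequences that follow are given by share. NFY (CCAAT) had 1.85% of outside against 2.99% of inside footprints in animal 1 and 2.21% against 3.40% in animal 2. ETS (CCGGAAGT), which shares its last 6 letters with PU.1, had 0.336% against 0.559% and 0.261% against 0.523%. NRF1 (GCGCATGC) had 0.317% against 0.510% and 0.315% against 0.559%. CRE (TGACGTCA) had 0.201% against 0.369% and 0.148% against 0.373%, and the E-box CACGTG had 0.578% against 1.01% and 0.610% against 1.14%. AP-1 (TGANTCA), RFX (GTTGCCNNG) and ZNF143 (ACTACAATT) were also lower outside in both animals by share of footprints, although ZNF143 was matched in less than 0.1% of either class and its matches per Mb differed in direction.

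SP/KLF (GGGCGG) had the only share that was higher outside in both animals, at 9.33% against 8.52% in animal 1 and 9.36% against 9.0% in animal 2, and at promoters its direction was the reverse, at 11.9% against 17.2% and 11.9% against 17.5%. Without the 5 bp on each side it was also lower outside, at 5.44% against 5.97% and 5.43% against 6.28%. Among the members it became more frequent with distance from the peak. Shares were 7.77% at 1 to 50 bp, 11.6% at 51 to 200 bp and 17.1% over 200 bp away in animal 1, and 7.29%, 13.5% and 16.4% in animal 2. The 4 that differed in direction were YY1 (AAGATGG), MEF2, searched as a degenerate sequence, the sequence of the GATA family (AGATAA) and the box bound by TATA-binding protein (TATAAA). Away from promoters, this last sequence was matched in 0.685% of outside against 0.383% of inside footprints in animal 1, and in 1.07% against 0.365% in animal 2. The GATA family sequence there had 0.535% against 0.396% and 0.863% against 0.398%. At promoters it had 0.187% against 0.157% and 0.227% against 0.153%, so it was higher outside in both animals within each location. YY1 was higher outside in both at promoters, at 0.551% against 0.540% and 0.680% against 0.575%, and lower away from them. MEF2 was higher outside in both away from promoters, at 0.214% against 0.139% and 0.180% against 0.0799%. At promoters MEF2 and TATAAA differed in direction.

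**Figure D4:**
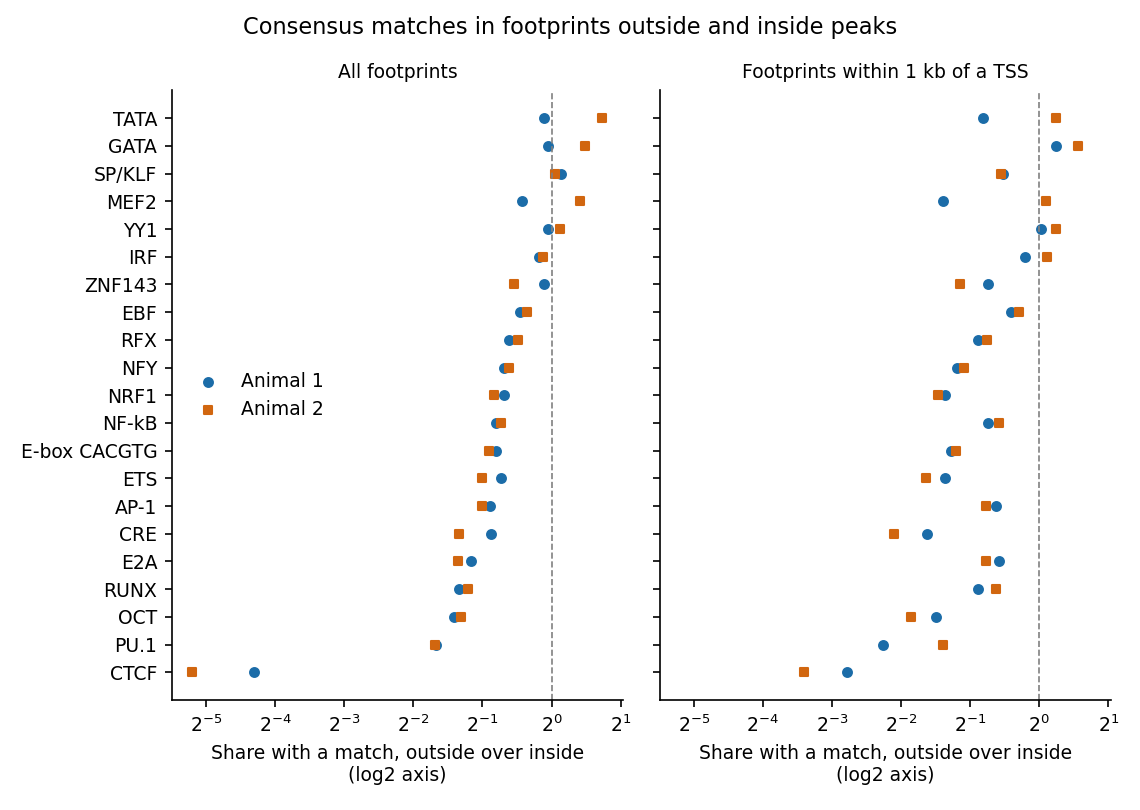
Share of footprints with a consensus match, outside over inside peaks, on a log2 axis for 21 consensus sequences, with all footprints on the left, those within 1 kb of a TSS on the right, and 1 point for each animal. Points left of the dashed line are lower outside; CTCF lies farthest left in both panels, and SP/KLF crosses the line between the panels.

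The footprints of the other animal were not used by the rule for a library's own members. A footprint of the other animal overlapped 53.8% of outside against 60.4% of inside footprints of animal 1, and 53.0% against 57.4% in animal 2. For all footprints the shares were 59.4% and 56.7%. The difference was -5.52 ± 1.53 percentage points (SD, n = 2). An overlap of 1 bp depends on the width of footprints and on how densely they lie. Both were lower outside peaks, and the shares were not corrected for either. With at least 50% of both footprints required, the shares were 38.0% against 44.8% in animal 1 and 38.2% against 43.8% in animal 2. Within location the gap was wider, both at promoters, with 58.4% against 69.6% and 56.5% against 65.3%, and away from them, with 42.7% against 54.2% and 44.8% against 51.9%. Outside footprints of 1 animal were also outside in the other in many cases. An outside footprint of the other animal overlapped 40.4% of outside against 3.70% of inside footprints in animal 1, and 35.5% against 2.38% in animal 2. Whether a footprint of the other animal is outside depends on that animal's peaks, which mostly lie at the same places, so this comparison is close to the rule itself.

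The following shares also depend on the other animal's peaks and are given as a description. The midpoint lay in a peak of the other animal for 19.998% of outside against 81.2% of inside footprints in animal 1, and for 29.7% against 86.7% in animal 2. Neither a footprint nor a peak of the other animal was at the place of 38.4% against 15.3% in animal 1, and of 34.5% against 11.2% in animal 2. The members farthest from a peak differed between the animals. Of those over 200 bp away, 51.3% of animal 1 and 35.6% of animal 2 overlapped a footprint of the other animal. Their midpoint lay in a peak of the other animal for 32.0% in animal 1 and 7.72% in animal 2.

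**Figure D5:**
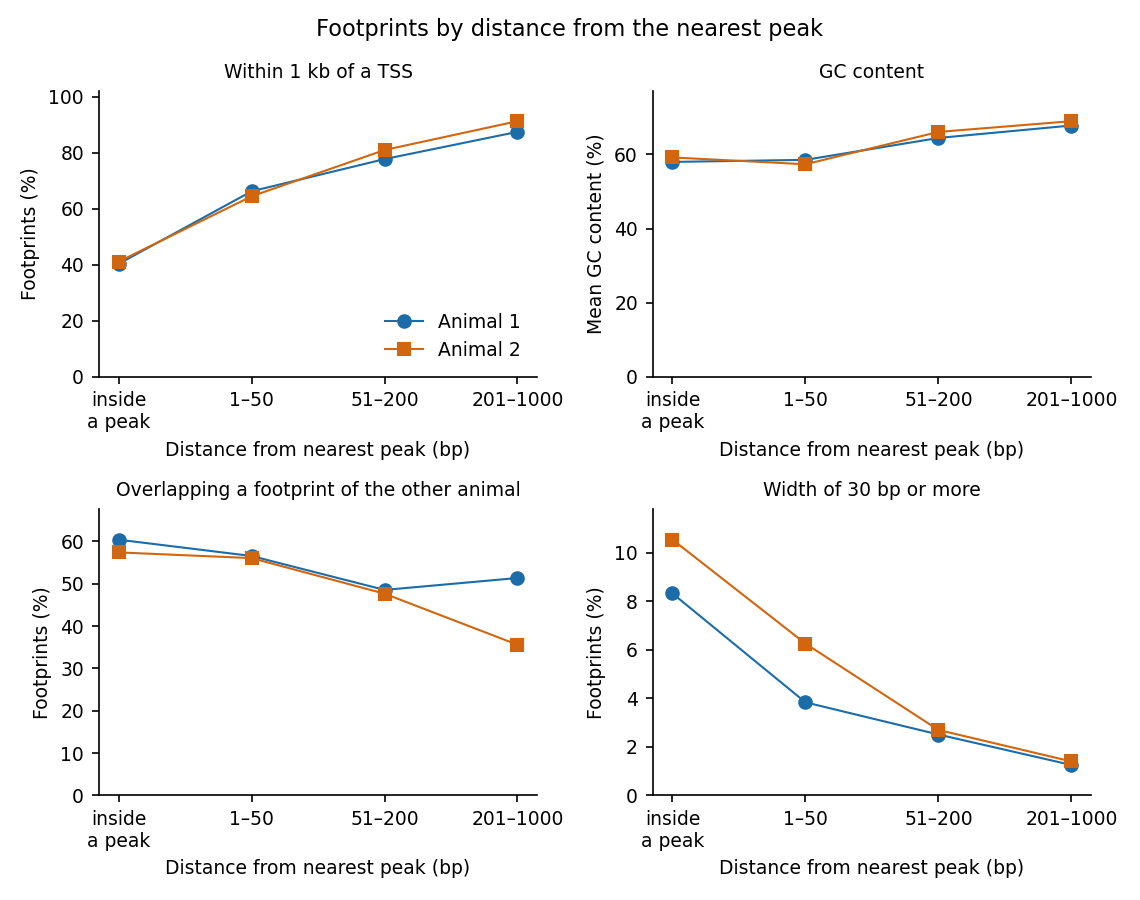
Footprints inside peaks and in 3 classes of distance from the nearest peak in bp, 1 line for each animal, for the promoter share (%), mean GC content (%), the share overlapping a footprint of the other animal (%) and the share 30 bp or wider (%). The promoter share reached 87.5% and 91.3% in the farthest class, and the overlap with the other animal there was 51.3% and 35.6%.

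There were 12552 footprints of animal 1, or 39.4% of its members, that lay outside the peaks of both animals and overlapped a member of animal 2. They are called shared members. Of these, 10209 or 81.3% were at promoters, and 234 or 1.86% were over 200 bp from any peak. Identical ends in both animals were found for 572, or 4.56%.

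Overlap with intervals of FDR under 0.001 was frequent. Such an interval overlapped 91.2% of outside against 84.6% of inside footprints in animal 1, and 92.0% against 82.4% in animal 2. Among all footprints the shares were 85.6% and 84%. At promoters the shares were 96.6% against 92.4% and 96.6% against 90.9%. Away from promoters the direction differed between the animals, with 78.2% against 79.2% in animal 1 and 81.2% against 76.5% in animal 2. The footprints were derived by the authors in part from the same FDR file, so an overlap is partly built in. The median of the lowest FDR, as log10, was -27.7 outside and -11.5 inside in animal 1, and -24.2 and -10.9 in animal 2. At promoters alone it was -38.6 against -36.1 and -33.0 against -31.1, a difference smaller than that between the animals. With distance the median approached 0, with -30.6, -24.9 and -21.1 in the distance classes of animal 1 from near to far and -26.7, -21.8 and -17.1 in those of animal 2. No listed interval was found for 0.368% of outside against 0.288% of inside footprints in animal 1, and for 0.216% against 0.270% in animal 2.

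Among protein-coding genes, 8862 of 21911 had 1 or more members within 1 kb of a TSS in animal 1, or 40.4%, and 9343 had one in animal 2, or 42.6%. Among genes with a promoter peak the shares were 65.8% of 13456 and 68.1% of 13711. Genes with several TSS offer more sequence, and a member within 1 kb of 2 genes was counted for both. H2-DMa, which encodes a chaperone that loads peptides onto MHC class II, had the most shared members with 16. It had 26 members in animal 1 and 23 in animal 2. Its annotated span overlaps that of Brd2, a gene for a reader of acetylated histones, which had 18 and 21 members and 11 shared ones. H2-DMa has 8 annotated TSS and 7474 bp of promoter sequence, against a median of 4002 bp for all protein-coding genes. How many members H2-DMa and Brd2 have in common was not counted, so the count of H2-DMa may not be its own alone. Ywhaz, a gene for a 14-3-3 adaptor protein, had 16 members in each animal, and Maz, which encodes a GC-binding zinc finger factor, had 16 and 13. Safb and Safb2 face each other across 1 promoter and had the same counts, 10 and 12. Abtb1 had 10 and 8 members, Carm1, which encodes an arginine methyltransferase, had 10 in each animal, Dop1b had 11 and 10, and Fem1c had 12 and 10.

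Gene lists were counted by how many genes had a member. Beside them stand the shares for all genes with a promoter peak, 65.8% and 68.1%, since members lay close to peaks. Higher peaks more often had a member, and the lists were not matched for peak height, so their shares may differ for that reason, which was not tested. In whole spleen, fewer cells of a type and less cutting per cell cannot be told apart. All 10 listed genes for MHC class II antigen presentation carried at least 1 member in both animals. After H2-DMa, whose count may include members near Brd2, the highest were H2-DMb2 with 6 and 8 members and H2-Ab1 with 4 in each. H2-Ab1 encodes a chain of the class II molecule. Of 15 B cell genes, all with a promoter peak, 11 or 73.3% had a member in animal 1 and 12 or 80% in animal 2, near the background. Bach2, a repressor that holds back plasma cell fate, had 4 and 10 members, Ebf1, a regulator of B cell identity, had 6 and 2, and Pax5, another such regulator, had 2 and 5. Single-gene counts thus differed between the animals by several members. A member was found at 3 and 4 of 15 T cell genes, although most of these genes, 12 and 13 of them, did have a peak at the promoter. Foxp3, the regulator of regulatory T cells, led with 7 and 4 members, 5 of them shared. Of the macrophage and monocyte genes, 3 of 10 with a promoter peak in animal 1 and 2 of 7 in animal 2 had a member. Slc40a1, the iron exporter, had 1 and 2, and Lyz2, a lysozyme gene, had 2 in animal 1 and 0 in animal 2. Ctss, a gene for a lysosomal protease, had 1 in animal 1 and 0 in animal 2.

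Of 12 erythroid genes, 2 and 3 had a member, where 5 and 7 had a promoter peak, with Bpgm at 3 and 5 and Tfrc, the transferrin receptor gene, at 3 and 2. Immediate early genes, which are transcribed within minutes of a stimulus, had members at 12 of 14 in animal 1 and 13 of 14 in animal 2, with a median of 4.5 and 4 members. All 14 had a promoter peak, and of all genes with one, 65.8% and 68.1% had a member. Over all protein-coding genes, with or without a peak, the median was 0 members in both animals. Jun had 11 and 12, with 3 and 1 footprints inside its peaks. Egr1 had 11 in each animal and Zfp36, whose protein destabilises mRNA, had 10 in each. Nr4a1 had 0 members in both animals, with 18 and 13 footprints inside its peaks. Of 15 ribosomal protein genes, 14 had a member in each animal, with Rpl5 at 7 and 6, Rps19 at 4 and 5, and Rpl36 at 4 in each. None of 10 hepatocyte genes had a member in either animal, and 2 of them had a promoter peak in each animal.

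By chromosome, the X chromosome had 13.1% of its footprints outside peaks in animal 1 and 15.3% in animal 2. The Y chromosome had 11 of 131 and 21 of 120, the fewest footprints of any chromosome.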

How the data were processed

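DNase-seq of the spleen of 2 mice was analysed from processed files. Per the deposited file listings, the authors aligned each library to mm10 and derived peaks from its own alignments, and footprints from those alignments and that library's FDR file. Replicates were not pooled. Neither label nor listing names the aligner or the callers. The deposited peak height is a signal of cut density with an unstated scale. The authors' FDR, a q-value, is listed for intervals under 0.05, and the deposited footprint files hold the constant 0.01 in the column for a p-value, so footprints cannot be ranked.

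A footprint's midpoint was set against the union of both deposited peak lists of its library. Genes are those of GENCODE release M21 and sequence is that of RefSeq GRCm38.p6, which has the mm10 sequence. Promoters took precedence over exons, exons over introns, and the remainder was intergenic. Overlap meant 1 bp or more. Named footprints were the 5 shared members farthest from a peak, with chromosome 18 left out of that choice. The 5 over 200 bp from a peak with the lowest FDR, at most 1 per 10 kb, were named as well. Also named were the 5 peaks with most members, the 10 genes with most shared members, and up to 3 genes of each list. Nr4a1, the inside counts of Jun and the listed genes with or without a peak in the tissue check were added after their values were seen. Shares of footprints carry a Wilson 95% half-width of at most 1.10 percentage points, of 0.152 and 0.156 points for the share outside, and of up to 3.12 points for members over 200 bp from a peak, which covers counting error only and treats footprints as independent. For shares of peaks and of genes no interval was computed, and those of the short gene lists are far less precise. The members, lists and consensus sequences were chosen with earlier results of these data known. Python 3.11.15, pandas 2.3.3 and numpy 2.4.6 were used, and distances, overlaps and matches were tested on simulated intervals. Alternatives covered the peak list, the definition of inside, promoter size, overlap, FDR threshold and sequence window.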

Additional observations from a re-analysis of the deposited data

How the results depend on the processing

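The mean share of footprints outside peaks, 15.7%, was 30.4% with the shorter peak list alone, 13.7% with any overlap counted as inside, 17.98% with inside meaning wholly within, 9.68% and 5.26% with peaks widened by 20 and 50 bp, and 14.4% with peaks up to 200 bp apart joined. The last alternative, and those restricted to promoters, were chosen after seeing the data. With the shorter list the median distance was 110.5 bp and not 30 bp, and 29.9% of members, not 0%, were over 1 kb from a peak. The promoter share, 70.4%, was 65.9% and 73.8% for promoters of 500 bp and 2 kb on each side, 73.5% with the TSS of all annotated genes, and 80.4% for members over 50 bp from a peak. Overlap with the other animal's footprints, 53.4%, was 38.1% when 50% of both was required, 37.9% for its outside footprints alone, and 47.6% for members over 50 bp from a peak. The share with FDR under 0.001, 91.6%, was 95.1% under 0.01, 89.0% under 0.0001 and 91.0% by the interval at the midpoint. GC content, 60.5%, was 63.7% for the footprint alone, 59.3% with 25 bp on each side and 64.9% at promoters. The SP/KLF share, 9.34%, was 5.44% for the footprint alone, 11.3% with 10 bp on each side and 11.9% at promoters. The cause of these changes was not tested.

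With 1 animal left out in turn, the share outside was 15.1% to 16.3%, median distance 28 to 32 bp, share over 1 kb 0% to 0%, median width 9 to 10 bp, promoter share 70.1% to 70.7%, overlap with the other animal 53.0% to 53.8%, share in its peaks 19.998% to 29.7%, FDR share 91.2% to 92.0%, GC content 60.2% to 60.8%, CTCF share 0.0766% to 0.129% and SP/KLF share 9.33% to 9.36%. There is 1 group of animals, so no animals could be paired across groups. Outside and inside footprints were paired within each animal, and their difference was taken there. Of 33 alternatives, 9 moved a mean by less than 1 SD. Few members lie behind the rarest consensus matches, with 15 and 11 for ZNF143 and 41 and 27 for CTCF.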
